A study of Mus musculus with 6 samples.

Results

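The type I interferon response genes described here are 34 genes, named as a fixed list and found by symbol among the 54532 genes of the deposited RNA-seq table. All 34 were in the table and had reads in every library. RNA was sequenced in 6 libraries of sorted cells from C57BL/6 mice, with 1 library for each condition. Macrophages came from 4 kinds of mice. WT mice had no leukemia and received PBS, WT/FE mice had no leukemia and received iron dextran, MA9 mice carried MLL-AF9 leukemia and received PBS, and MA9/FE mice carried the leukemia and received iron dextran. Leukemia cells were sorted from MA9 and MA9/FE mice. Iron dextran was injected into the peritoneum every other day, starting a week after transplantation, so FE marks a repeated load and not a single dose. The leukemia was made by a retrovirus (MSCV-MLL-AF9-GFP) in c-kit+ bone marrow cells and passed on by secondary transplantation, so the leukemia cells of all leukemic mice descend from transformed donor cells, and macrophages were taken as GFP-. The labels name the spleen for the macrophages and the BM for the leukemia cells, whereas the methods of the study describe a BM macrophage sort, and this conflict was not settled. The number of mice behind each library was not given in the sources used here.

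Type I interferons are secreted proteins that bind the receptor chains IFNAR1 and IFNAR2, which activate the kinases JAK1 and TYK2. These phosphorylate STAT proteins, of which STAT2 joins IRF9 in a complex called ISGF3, and this complex binds the interferon-stimulated response element (ISRE) in the promoters of many genes. The induced proteins recognise foreign nucleic acid, block viral translation and release, and restrain the signal itself. A resting, low level of this program is known in macrophages and blood cells, and interferon is known to act on hematopoietic stem cells.

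Sequencing depth, recovered from the FPKM, lay between 16085347 and 19518360 reads. Macrophage markers (15 of 15 above 0 in every library) summed to 697, 1145, 789 and 1504 FPKM in the macrophage libraries, and also to 1250 and 1590 FPKM in the leukemia cells. There Lyz2, a gene of myeloid cells in general, made up 1017 and 1348 FPKM of the sum, and 11 of the 15 markers, C1qa and Mertk among them, were lower in both leukemia libraries than in every macrophage library. FPKM corrects reads for exon length and for the size of the library. Wherever 4 macrophage values follow each other here, they are those of WT, WT/FE, MA9 and then MA9/FE mice, and a pair of leukemia cell values is given without iron first. The macrophage libraries also held all 8 B cell markers at high levels, with sums of 2119, 1974, 1168 and 2078 FPKM, against 19.6 and 18.4 FPKM in the leukemia cells. These libraries are therefore named by their labels, and the values below belong to all cells sorted into them. In such bulk samples fewer cells of a type and less RNA per cell cannot be told apart.

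The 34 genes were expressed at moderate levels in the macrophage libraries and at lower levels in the leukemia cells. Their FPKM summed to 934, 655, 813 and 875 in the macrophages and to 407 and 280 in the leukemia cells. The median gene stood at 18.3, 13.6, 13.6 and 13.7 FPKM in the 4 macrophage libraries and at 6.94 and 3.69 FPKM in the leukemia cells. The WT macrophages held the highest level of 21 of the 34 genes, and the MA9/FE leukemia cells held the lowest level of 31. The other 3, Bst2, Oas3 and Cmpk2, were lowest in WT/FE macrophages. How often all genes were highest or lowest in these libraries was not counted. At least 10 FPKM was reached by 22, 21, 21 and 21 of the 34 genes in the macrophages and by 10 and 8 in the leukemia cells. Of all genes, between 9.88% and 10.1% reached that level in each library.

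**Figure D1:**
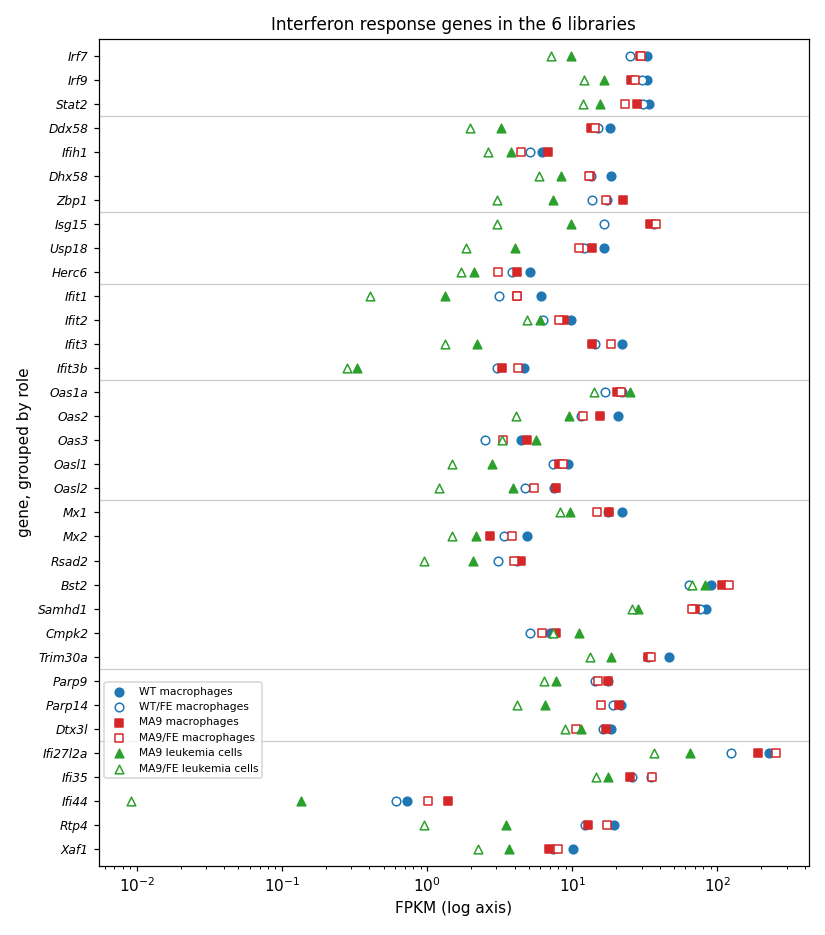
FPKM of the 34 genes on a log axis, grouped by role, with 1 point per library (circles WT, squares MA9 macrophages, triangles leukemia cells, open symbols with iron). The MA9/FE leukemia cells are lowest for 31 genes, and the WT macrophages are highest for 21. The same was not counted over all genes.

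Among the signalling genes, Irf7, the transcription factor that amplifies interferon production, had 32.5, 24.95, 29.4 and 29.6 FPKM in the macrophages and 9.77 and 7.18 FPKM in the leukemia cells. Irf9, the DNA-binding chain of ISGF3, lay between 12.1 and 32.9 FPKM, and its partner Stat2 between 11.8 and 33.7 FPKM. Both were highest in WT macrophages and lowest in MA9/FE leukemia cells.

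The sensors detect foreign RNA or DNA. Ddx58, which encodes RIG-I, ranged from 1.97 FPKM in MA9/FE leukemia cells to 18.3 in WT macrophages. Ifih1, which encodes MDA5, lay between 2.61 and 6.75 FPKM, Dhx58, which encodes LGP2, between 5.85 and 18.5 FPKM, and Zbp1, a sensor of Z-form nucleic acid that can trigger necroptosis, between 3.02 and 22.3 FPKM. Ifih1 and Zbp1 were highest in MA9 macrophages, and Ddx58 and Dhx58 in WT macrophages.

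Isg15 encodes a ubiquitin-like protein that is coupled to other proteins during the interferon response. Herc6, the main ISG15 ligase of the mouse, had between 1.71 and 5.10 FPKM. Usp18, which removes ISG15 and also damps signalling at the receptor, had between 1.85 and 16.6 FPKM. The IFIT genes, whose products bind foreign RNA ends, lie together on chromosome 19 between bases 34550694 and 34650009 (mm10). Summed FPKM of the 4 IFIT genes were 42.6, 26.7, 29.8 and 35.0 in the macrophages and 9.90 and 6.85 in the leukemia cells. Ifit3 and Ifit3b share 99.1% of their coding bases, so that reads may be split between them and each alone is uncertain.

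Active enzymes of the OAS family make oligoadenylates that activate RNase L. The 5 OAS and OAS-like genes here summed to 63.8, 43.0, 56.8 and 50.9 FPKM in the macrophages and to 46.7 and 24.3 FPKM in the leukemia cells. Oas1a was the only OAS gene above 10 FPKM in both leukemia libraries, with 25.1 and 14.2 FPKM, and it shares 96.7% of its coding bases with Oas1g, so its level is uncertain as well.

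The direct effectors act on the virus or its building blocks. Bst2, which encodes tetherin and holds budding virus at the cell surface, had 90.7, 63.6, 107 and 121 FPKM in the macrophages and 82.6 and 66.8 FPKM in the leukemia cells, where it was the highest of the 34 genes. Samhd1, which breaks down deoxynucleotides, had between 67.0 and 84.0 FPKM in macrophages and 28.5 and 25.9 FPKM in leukemia cells. Trim30a, grouped with them, a regulator of inflammatory signalling, lay between 13.3 and 46.4 FPKM. The dynamin-like GTPase genes Mx1 and Mx2 reached at most 22.01 and 4.85 FPKM. Mx1 is defective in most inbred mouse strains, so its mRNA does not imply a working protein. Rsad2, which encodes viperin, and its neighbour on chromosome 12, the mitochondrial nucleotide kinase gene Cmpk2, reached 4.44 and 11.2 FPKM, with Cmpk2 highest in MA9 leukemia cells.

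Parp9 and Dtx3l, whose products form a ubiquitin ligase, and Parp14, an ADP-ribosyltransferase, lay between 10.6 and 21.6 FPKM in macrophages and between 4.18 and 11.4 FPKM in leukemia cells. The exons of Parp9 and Dtx3l overlap on opposite strands over 458 bases, and without strand information reads there cannot be assigned. Ifi27l2a, a small mitochondrial protein gene and the most abundant of the 34 in every macrophage library, had 228, 123, 191 and 254 FPKM there and 64.6 and 36.7 FPKM in the leukemia cells. Ifi35 lay between 14.6 and 35.5 FPKM. Xaf1, which promotes apoptosis, lay between 2.22 and 10.2 FPKM. Ifi44 was the scarcest, with at most 1.39 FPKM and with 1 read in MA9/FE leukemia cells.

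Promoter sequences of RefSeq (GRCm38.p6, the assembly of mm10) were matched by symbol for 24 of the 34 genes. Dhx58, Zbp1, Usp18, Oas2, Mx1, Mx2, Parp9, Parp14, Ifi27l2a and Rtp4 had no entry in the table. The ISRE core was searched as GAAANNGAAA, with N for any base, on both strands, from 250 bases before to 50 bases after the start, and matches that overlap were each kept. It was present in 12 of the 24 genes against 3.99% of 27025 genes in the table. The motif TTCNNNGAA, bound by STAT dimers and searched the same way, was present in 5 of the 24 genes (20.8%) against 9.55% of all genes. Of 42 matched genes on a second list of interferon-induced genes, 22 (52.4%) held the ISRE core. The 150 bases before the start are shown for 5 genes that recur in the comparisons, with ISRE core matches in capitals. Isg15 was past the fold in 5 of the 7 comparisons below, and Bst2 was the most abundant of the 34 genes in leukemia cells. Ifit3 had the largest fall among the 34 from macrophages to leukemia cells without iron. Oas1a and Oasl2 are OAS genes with and without a match.
Isg15 (chr4:156200819-156200968, minus strand): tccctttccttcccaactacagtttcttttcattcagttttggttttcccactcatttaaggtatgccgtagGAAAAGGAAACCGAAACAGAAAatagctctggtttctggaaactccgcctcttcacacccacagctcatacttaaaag
Bst2 (chr8:71537473-71537622, minus strand): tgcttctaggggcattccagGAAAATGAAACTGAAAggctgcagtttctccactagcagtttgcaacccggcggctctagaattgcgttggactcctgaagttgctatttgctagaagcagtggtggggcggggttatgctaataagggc
Ifit3 (chr19:34583379-34583528, plus strand): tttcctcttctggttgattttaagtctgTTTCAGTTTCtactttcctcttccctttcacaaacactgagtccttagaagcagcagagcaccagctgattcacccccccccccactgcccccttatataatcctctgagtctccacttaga
Oas1a (chr5:120907526-120907675, minus strand): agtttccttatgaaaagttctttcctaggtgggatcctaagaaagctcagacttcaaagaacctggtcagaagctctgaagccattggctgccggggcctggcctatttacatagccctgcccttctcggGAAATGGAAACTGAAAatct
Oasl2 (chr5:114896784-114896933, plus strand): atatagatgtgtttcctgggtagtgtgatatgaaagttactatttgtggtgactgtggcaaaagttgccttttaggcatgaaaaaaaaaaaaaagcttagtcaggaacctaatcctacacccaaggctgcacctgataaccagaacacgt
In Isg15 3 matches overlap in 1 run, and in Bst2 and Oas1a 2 matches overlap. In Ifit3 the motif reads on the other strand, and a further match, from base -156 to -147 relative to the start, is cut off by the printed 150 bases. These are matches of letters and not shown binding sites.

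Comparisons between pairs of libraries asked how iron or leukemia moved these genes. With 1 library per condition no such comparison has a test. A gene was counted as past the fold when its log2(FPKM + 1) differed by at least 1 (2-fold) once the pair had been scaled by TMM (trimmed mean of M values), a scale that understates changes at low FPKM, among genes with at least 10 reads in one of the pair. All 34 genes met that minimum of reads in all 7 comparisons. The share of all genes past the same limit is given for each comparison. Counting intervals (95%, exact) of read ratios cover counting error only.

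In macrophages without leukemia, all 34 interferon response genes were lower in the library with iron. Their changes ran from -1.10 to -0.10 with a median of -0.41 on the log2 scale, whereas the median over all 16737 genes was -0.01 and 53.3% of all genes were lower. Only Isg15 was past the fold. In each direction few genes passed, with 0.544% of all genes lower and 0.729% higher. Isg15 had 36.6, 16.6, 34.4 and 37.8 FPKM in the macrophages and 9.76 and 3.04 FPKM in the leukemia cells. WT/FE stood apart from the other 3 macrophage libraries, which lay close together. Without iron there were 2.21 times as many scaled Isg15 reads in WT macrophages as with iron (counting interval 1.88 to 2.61, 540 against 211 reads). The counting interval lay below 1 for 33 of the 34 genes, against 18.9% of all genes, with Ifi44 as the exception.

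The role groups fell in this comparison by different amounts. Median changes were -0.59 for the IFIT genes, -0.56 for the OAS family, -0.45 for the ISG15 system, -0.44 for the other induced genes and -0.39 for the direct effectors. They were -0.31 for the sensors, -0.17 for the PARP9 group and -0.14 for the signalling genes. After Isg15, the changes furthest from 0 were those of Ifi27l2a (-0.88), Ifit1 (-0.79) and Oas2 (-0.79). Between the same libraries the macrophage marker sum was 697 FPKM in WT and 1145 in WT/FE. The NK cell marker sum (5 of 5 above 0) was 128 and 80.5, and the T cell marker sum (7 of 7 above 0) 81.8 and 65.6. The erythroid marker sum (8 of 8 above 0) was 92.9 and 205. For plasmacytoid dendritic cells, the main interferon-producing cells, the marker sum (6 of 6 above 0) was 32.2 and 34.1. Of these markers only Cox6a2 was higher with iron (11.2 and 16.4 FPKM), and Siglech, Ccr9, Klk1, Pacsin1 and Cd209d were lower. The part of all these cell types in the result was not tested.

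In leukemia cells, all 34 genes were again lower in the library with iron. Changes ran from -1.41 to -0.06 with a median of -0.46, against a median of 0.00 and 49.3% of genes lower among all 15396 genes. Past the fold were 5 of the 34 genes (14.7%), all lower, against 0.429% of all genes lower and 0.435% higher. The genes were Isg15 (-1.41), Rtp4 (-1.21), Oasl2 (-1.14), Zbp1 (-1.06) and Oas2 (-1.03). With a pseudocount of 0.1 in place of 1, 9 genes passed, and the others were Ifit1, Usp18, Rsad2 and Ifi44.

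Rtp4, a chaperone of the secretory pathway, had 3.51 and 0.946 FPKM in the leukemia cells, and 19.5, 12.3, 12.7 and 17.3 FPKM in the macrophages. Its read ratio without against with iron in leukemia cells was 3.72 (counting interval 2.56 to 5.53, 136 against 36 reads). Oasl2, an OAS protein with a ubiquitin-like part, had 3.87 and 1.21 FPKM in the leukemia cells, and 7.45, 4.75, 7.69 and 5.42 FPKM in the macrophages. Both genes were thus lowest in MA9/FE leukemia cells. Zbp1 had 7.35 and 3.02 FPKM in the leukemia cells and 17.4, 13.6, 22.3 and 17 FPKM in the macrophages. Oas2 had 9.44 and 4.10 FPKM in the leukemia cells and 20.5, 11.5, 15.6 and 11.9 FPKM in the macrophages. For Zbp1 and Oas2 the library with iron was the lower one in all 3 pairs. Isg15 rested on 134 and 41 reads in the leukemia cells, a ratio of 3.21 (counting interval 2.25 to 4.68).

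By role, the ISG15 system and the OAS family had the medians furthest from 0 in the leukemia cells (-0.82 and -0.78), followed by the other induced genes (-0.54), the sensors (-0.48), the signalling genes (-0.40), the IFIT genes (-0.37), the direct effectors (-0.35) and the PARP9 group (-0.33). The counting interval lay below 1 for 33 of 34 genes against 14.4% of all genes, with the scarce Ifit3b as the exception. B cell markers (8 of 8 above 0) summed to 19.6 and 18.4 FPKM in these libraries. NK cell markers, with Ncr1 and Klra8 at 0, summed to under 1 FPKM in both, and plasmacytoid dendritic cell markers, with Klk1 or Cd209d at 0, to 1.48 and 1.23 FPKM. Neutrophil markers (10 of 10 above 0) summed to 2812 and 2145 FPKM, myeloid progenitor markers to 4545 and 3960, and erythroid markers to 429 and 164. The part of those differences in the result was not tested. The interferon response genes with an ISRE core in the promoter window had a median of -0.49 (12 genes, -1.41 to -0.06). Those without it had a median of -0.36 (12 genes, -1.14 to -0.13), so the ranges overlapped. Rtp4, Zbp1 and Oas2, all past the fold here, had no promoter entry and are in neither group.

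In macrophages of leukemic mice the 34 genes did not move together. The library with iron was higher for 17 and lower for 17 genes (48.2% of all genes were lower), with changes from -0.59 to 0.53 and a median of 0.00. Past the fold were 0 of the 34 genes, against 1.26% of all genes lower and 1.19% higher. Ifi35 (0.53), Rtp4 (0.45), Ifit3 (0.45) and Ifi27l2a (0.44) had the changes furthest above 0, and Dtx3l (-0.59), Ifih1 (-0.48) and Oas3 (-0.41) the furthest below. The other induced genes had a median of 0.44 (4 of 5 higher), the PARP9 group -0.36 (3 of 3 lower) and the OAS family -0.33 (3 of 5 lower). Neutrophil markers summed to 1789 FPKM in MA9 and 907 in MA9/FE macrophages, B cell markers to 1168 and 2078, and macrophage markers to 789 and 1504, and their part in the values was not tested.

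**Figure D2:**
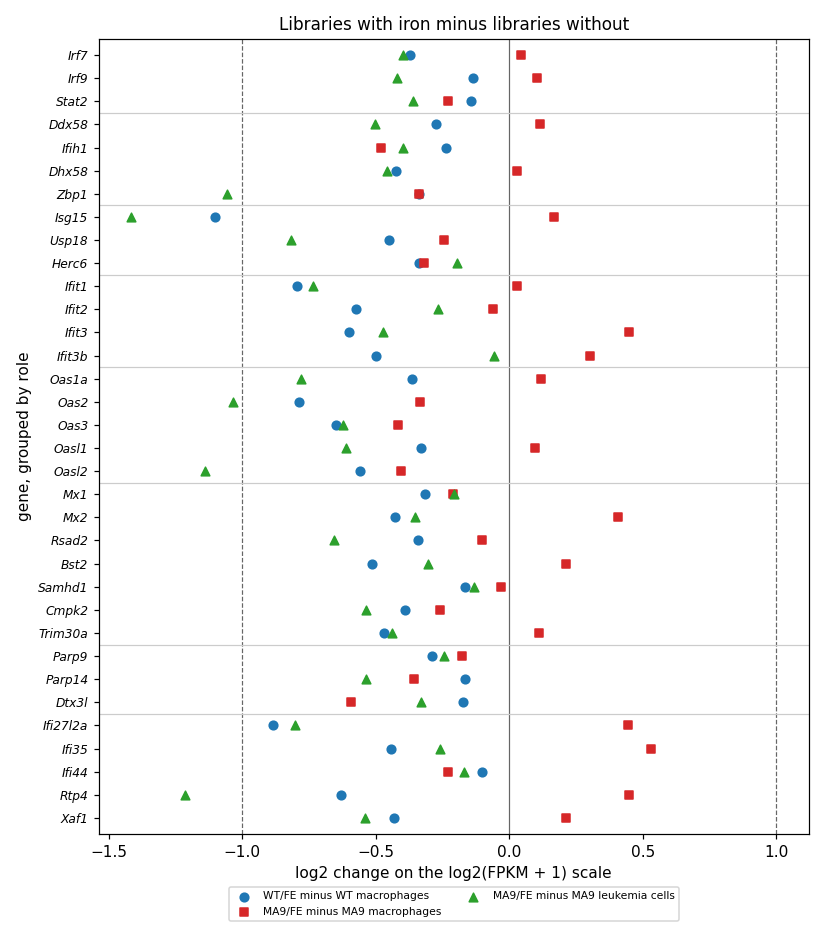
Log2 change of each gene with iron in WT macrophages (circles), MA9 macrophages (squares) and leukemia cells (triangles), 1 library against 1, with dashed lines at a 2-fold change. All 34 circles and all 34 triangles lie left of 0, and the squares lie 17 on each side.

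**Figure D3:**
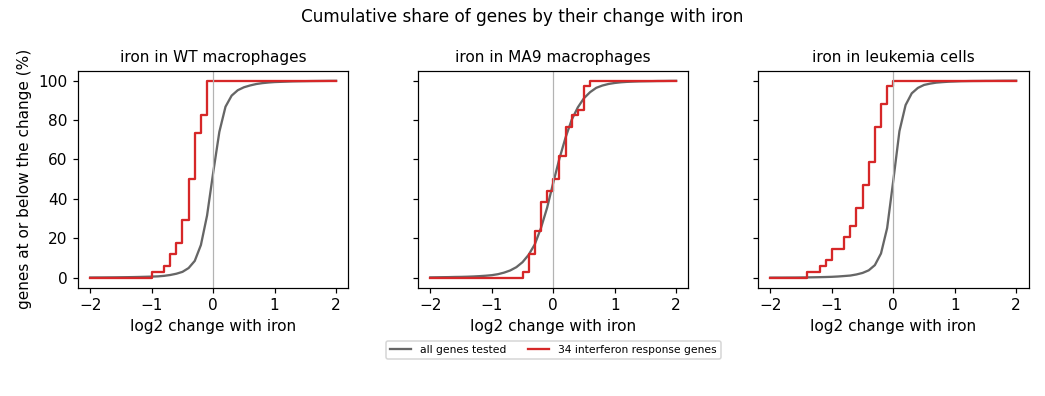
Percentage of genes at or below each log2 change with iron, for the 34 interferon response genes and for all genes tested. The curve of the 34 genes lies left of that of all genes in WT macrophages (medians -0.41 and -0.01) and in leukemia cells (medians -0.46 and 0.00), and the curves run together in MA9 macrophages.

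The 3 iron comparisons share no library. Across them 17 genes were lower with iron in all 3. The other 17 were lower in WT macrophages and leukemia cells and higher in MA9 macrophages. As all 34 were lower in WT macrophages and leukemia cells, these counts repeat the split in MA9 macrophages, where 48.2% of all genes were lower. Whether iron acted differently in MA9 and WT macrophages could not be tested, because 4 single libraries leave nothing from which to estimate the spread.

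An iron effect common to the 3 pairs was tested with limma on log2(FPKM + 1), with the kind of cell as a block and 17132 genes. In all fits limma drew the spread of each gene toward a value shared by all genes tested. With 1 library per condition, the spread in this fit came from how the iron response differed between the kinds of cell, and not from mice. A gene that responded differently in 1 kind of cell thus got a larger SE, and a high adjusted p does not show that iron had no effect. All 34 estimates were below 0, with a median of -0.28, and the share of all genes below 0 was not counted. After Benjamini-Hochberg adjustment over all genes in limma, 0 of the 34 genes had an adjusted p of at most 0.05 (0.00% of all genes in either direction), and each adjusted p was 0.995. Unadjusted p-values of limma were under 0.05 for 13 of the 34 genes, all lower, against 1.48% of all genes lower and 2.05% higher. The smallest were those of Oas3, with a change of -0.56 (SE 0.095, limma adjusted p = 0.995), and Oas2, with a change of -0.71 (SE 0.156, limma adjusted p = 0.995). Without the MA9 macrophage pair 27 of the 34 genes had an unadjusted limma p under 0.05, against 796 of all genes tested. Without the WT pair 8 did so, against 623 of all genes, and without the leukemia cell pair 3, against 638. In each case 0 of the 34 passed adjustment. The MA9 pair is the one in which the 34 genes did not move together, and each of these fits rests on 2 pairs. Isg15, with the changes furthest from 0 in 2 of the 3 pairs, had a common change of -0.78 and an SE of 0.325 (limma adjusted p = 0.995), and its own change was 0.17 in MA9 macrophages. In the limma fit of iron over the 4 macrophage libraries, the spread came from how the WT and MA9 pairs differed, in each gene and pooled over all genes. There 33 of 34 estimates were below 0, and the share of all genes below 0 was not counted. Unadjusted limma p was under 0.05 for 3 genes, all lower, against 1.59% of all genes lower and 2.34% higher. After adjustment 0 of the 34 passed, against 0.0123% of all genes higher and 0.00% lower.

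Exon length moved with the iron values. Among the 34 genes, Spearman's rho of the change with exon length was 0.59 in WT macrophages, -0.70 in MA9 macrophages and 0.26 in leukemia cells, and over all genes with at least 100 reads in both libraries it was 0.29, -0.49 and 0.07. These describe genes of the same libraries, which are not independent. In MA9 macrophages 13 of the 17 shorter genes (463 to 3927 bases) were higher with iron, with a median of 0.12, and 4 of the 17 longer genes (4111 to 9306 bases), with a median of -0.23. In WT macrophages and in leukemia cells 0 of 17 were higher in both length classes. With the linear trend on length over all tested genes removed, the medians were -0.41, 0.02 and -0.46 in WT macrophages, MA9 macrophages and leukemia cells. With the trend fitted only to genes of at least 100 reads in both libraries, which was added once the data had been seen, 34 of 34 genes stayed lower in WT macrophages (median -0.40) and in leukemia cells (median -0.46), and in MA9 macrophages 11 were higher and 23 lower (median -0.09).

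**Figure D4:**
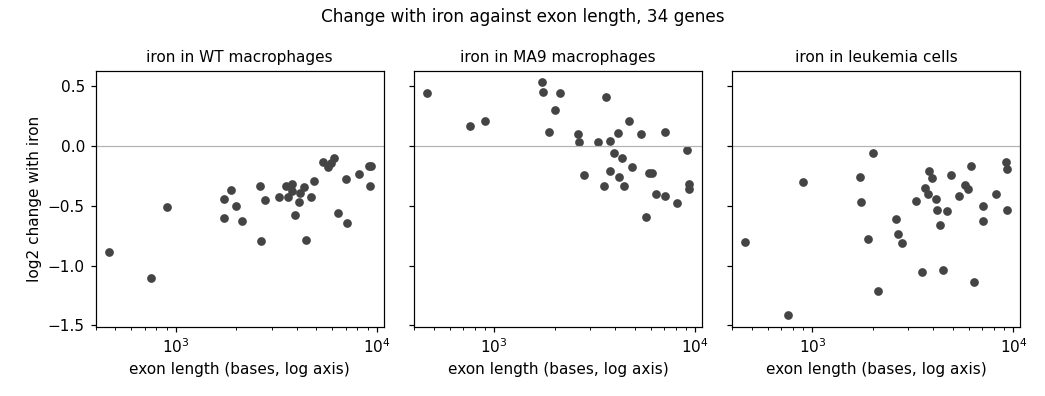
Log2 change with iron against exon length (log axis) for the 34 genes in the 3 pairs of libraries. Spearman's rho is 0.59, -0.70 and 0.26 from left to right, and only in the left and right panels do all points lie below 0.

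Leukemia without iron went with small changes in the macrophages. Between MA9 and WT macrophages 25 genes were lower and 9 higher, with changes from -0.65 to 0.48 and a median of -0.23, while 50.5% of all genes were lower. Past the fold were 0 of the 34 genes, against 3.78% of all genes higher and 0.911% lower. All 4 IFIT genes were lower (median -0.41). Ifi44 (0.48), Zbp1 (0.35) and Bst2 (0.24) had the changes furthest above 0, and Ifit3 (-0.65) and Mx2 (-0.64) the furthest below. From WT to MA9 macrophages the neutrophil marker sum went from 3.70 to 1789 FPKM (7 and 10 of 10 above 0, with Ltf, Ly6g and Mmp8 at 0 in WT), the myeloid progenitor sum from 32.2 to 184, the erythroid sum from 92.9 to 272 and the B cell sum from 2119 to 1168. Their part in the values was not tested.

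With iron, MA9/FE macrophages were above WT/FE macrophages for 23 genes and below for 11, with a median of 0.20, and 51.4% of all genes were higher. Past the fold were 2 genes, both higher, against 2.93% of all genes higher and 1.63% lower. These were Isg15 (1.16, 460 against 211 reads) and Ifi27l2a (1.06, 1893 against 960 reads), followed by Bst2 (0.93). From WT/FE to MA9/FE macrophages the neutrophil marker sum went from 2.62 to 907 FPKM (7 and 10 of 10 above 0, with Camp, Ly6g and Mmp8 at 0 in WT/FE), the myeloid progenitor sum from 29.5 to 104 and the erythroid sum from 205 to 503, and their part in the result was not tested. This comparison uses the same WT/FE library in which the 34 genes were lower than in WT macrophages, so it is not independent of that result. It also followed exon length, with rho of -0.74 among the 34 genes and -0.55 over all genes. With the length trend removed Isg15 stood at 1.01 and Ifi27l2a at 0.86, so 1 gene passed, and with the trend fitted to genes of at least 100 reads they stood at 0.62 and 0.37, so that 0 passed. In limma over the 4 macrophage libraries, the leukemia effect was above 0 for 16 and below 0 for 18 of the genes. The share of all genes below 0 was not counted. The spread came from how the pairs with and without iron differed, in each gene and pooled over all genes. After adjustment 0 genes passed, against 2.43% of all genes higher and 0.209% lower. Bst2 alone had an unadjusted limma p under 0.05 (10.9% of all genes higher and 4.72% lower), with a change of 0.59 (SE 0.218, limma adjusted p = 0.257).

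Leukemia cells held lower levels than the macrophages of the same kind of mouse. Cell type and tissue label differ together here and cannot be told apart, and the 4 libraries are those of the iron comparisons. Without iron 31 of 34 genes were lower (median -0.85, 50.9% of all genes lower), and 15 (44.1%) were past the fold, all lower, against 12.7% of all genes lower and 7.31% higher. With iron 33 of 34 were lower (median -1.36, 51.6% of all genes lower), and 23 (67.6%) were past the fold, all lower, against 13.2% of all genes lower and 9.57% higher. The exceptions without iron were Cmpk2 (0.45), Oas1a (0.25) and Oas3 (0.14), and with iron Cmpk2 (0.21).

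Isg15 (-1.75 without and -3.29 with iron), Rtp4 (-1.63 and -3.25) and Ifi27l2a (-1.58 and -2.79) were among the genes with the largest falls in both comparisons. Ifit3 changed by -2.21 and -3.09 and its near copy Ifit3b by -1.71 and -2.04. Ifit3 had 22.1, 14.3, 13.6 and 18.5 FPKM in the macrophages against 2.21 and 1.32 FPKM in the leukemia cells. Ifit3b had 4.64, 3.01, 3.29 and 4.20 FPKM against 0.330 and 0.280 FPKM. Every macrophage library was above both leukemia libraries for these genes, the uncertainty of the copies aside. The same was not counted over all genes.

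Ddx58 changed by -1.80 without and -2.38 with iron, and had 18.3, 15.0, 13.4 and 14.3 FPKM in the macrophages against 3.21 and 1.97 FPKM in the leukemia cells. Usp18 changed by -1.58 and -2.11, from 16.6, 11.9, 13.6 and 11.1 FPKM in the macrophages to 4.01 and 1.85 FPKM. Parp14 changed by -1.57 and -1.71, with 21.6, 19.2, 20.8 and 15.7 FPKM against 6.52 and 4.18 FPKM. Zbp1 changed by -1.51 and -2.19. Macrophage and leukemia libraries did not overlap for Ddx58, Usp18, Parp14 or Zbp1. These genes were named for large changes in the same libraries, and how many of all genes separate in this way was not counted. The remaining genes past the fold had changes between -1.53 and -1.09 without iron and between -1.97 and -1.005 with iron. Of these, Ifi44 with iron rests on 1 read in the leukemia cells, a read ratio of 113 with a counting interval of 19.9 to 4516.

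**Figure D5:**
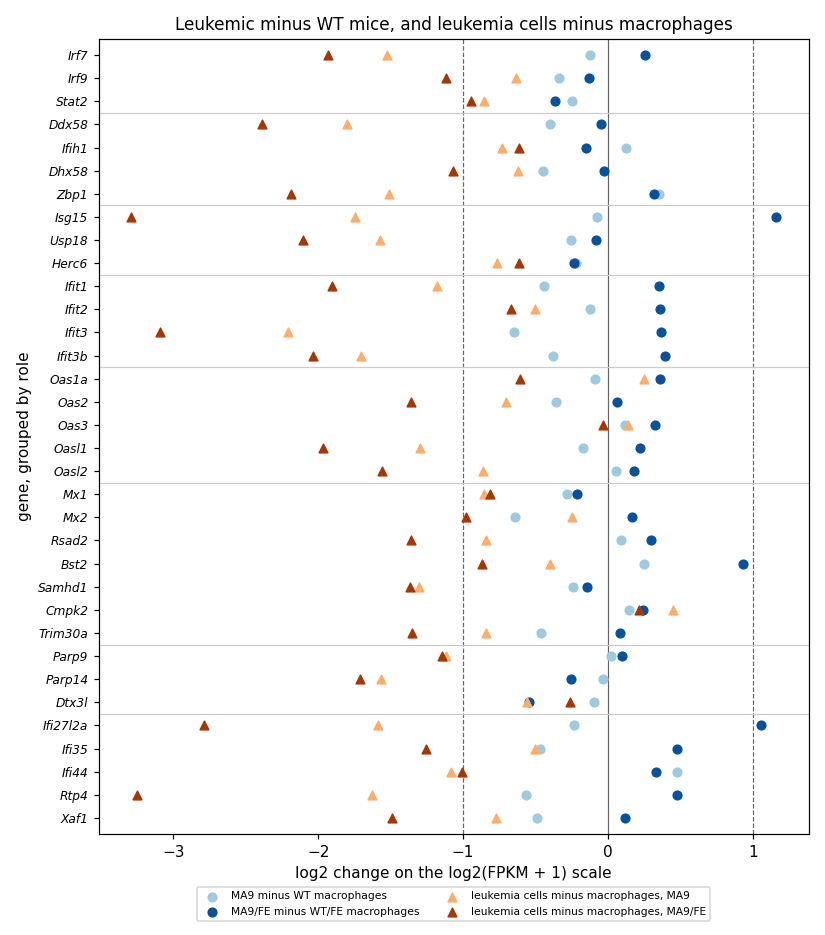
Log2 changes of the 34 genes between macrophages of leukemic and WT mice (circles) and between leukemia cells and macrophages of the same kind of mouse (triangles), each 1 library against 1, with dashed lines at a 2-fold change. Triangles past the left line number 15 without and 23 with iron, and only Isg15 and Ifi27l2a have a circle past the right line.

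The genes upstream of the response were measured as well. Of 21 interferon ligand genes, 17 were listed at 0 in all 6 libraries, among them every listed Ifna gene and Ifnb1. At these depths 0 reads allow for up to 3 reads. Ifnab, Ifnk and Ifnz had at most 7 reads in a library. Ifng, the type II ligand, had 49, 24, 63 and 36 reads in the macrophages and 0 and 1 in the leukemia cells. Both macrophage libraries with iron were lower than their partners, on the log2 scale by changes of -0.49 and -0.48.

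The receptor genes were present in every library. Ifnar1 had 26.7, 26.7, 21.7 and 20.6 FPKM in the macrophages and 22.3 and 22.5 FPKM in the leukemia cells. Ifnar2 had 25.1, 28.7, 22.8 and 26.6 FPKM in the macrophages and 45.4 and 48.7 FPKM in the leukemia cells, where it was higher than in every macrophage library. The kinase gene Jak1 had 42.9 to 53.3 FPKM in macrophages and 23.6 and 21.7 in leukemia cells. Tyk2, also a kinase gene, had 21.04 to 30.6 FPKM over all libraries. Jak1 and Tyk2 changed with iron by at most 0.12 in size in WT macrophages and leukemia cells. In MA9 macrophages Jak1 changed by 0.08 and Tyk2 by -0.33. Jak1 (-1.03) was past the fold, as lower, in leukemia cells against macrophages with iron. Of 7 receptor and kinase genes, 16 sensor, adaptor and IRF genes and 6 negative regulators outside the 34, 0 were past the fold in any of the 3 iron comparisons, with 1 of the 16 under the minimum of reads in leukemia cells. Their medians with iron were 0.01, 0.00 and 0.06 in WT macrophages, 0.12, 0.03 and -0.06 in MA9 macrophages and 0.01, -0.01 and 0.03 in leukemia cells. Single genes lay further from 0. In leukemia cells the sensor, adaptor and IRF genes ran from -0.68 (Irf1) to 0.37 (Irf8), with 7 higher and 8 lower. The negative regulators ran there from -0.06 to 0.56 (Socs3), with 3 higher and 3 lower.

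A further list of 48 interferon-induced genes was also mostly lower with iron in WT macrophages and leukemia cells. This list, too, was chosen with earlier results of these data known. Of 46 tested in WT macrophages 44 were lower with iron (median -0.19), against 53.3% of all genes, and 0 were past the fold. Of 46 tested in leukemia cells 39 were lower (median -0.21), against 49.3% of all genes. Oas1g (-1.55) and Lgals3bp (-1.23) were past the fold, against 0.429% of all genes lower and 0.435% higher. Oas1g had 5.79 and 1.32 FPKM in the leukemia cells, and Lgals3bp, which encodes a secreted glycoprotein, 23.7 and 9.54 FPKM. Of 47 tested in MA9 macrophages 29 were higher with iron (median 0.12), against 51.8% of all genes. Slfn4 (-1.25) alone was past the fold, against 1.26% of all genes lower and 1.19% higher. Slfn4, a myeloid gene of the Schlafen family, was also past the fold between MA9 and WT macrophages (2.06), and had 0.233, 0.195, 4.11 and 1.11 FPKM in the macrophages against 71.8 and 62.3 FPKM in the leukemia cells. Between MA9/FE and WT/FE macrophages Ifitm1 (1.19), Isg20 (1.19) and Slfn1 (1.01) were past the fold, against 2.93% of all genes higher and 1.63% lower. Of 47 tested, 18 genes of this list were lower and 1 higher past the fold in leukemia cells against macrophages without iron, and 29 and 1 with iron. Of all genes 12.7% were lower and 7.31% higher past it without iron, and 13.2% and 9.57% with iron. On this list Phf11a (-3.66 and -3.12) and Ifitm1 (-3.15 and -3.46) fell the most, and Slfn4 (3.80 and 4.88) was the higher one. Among the receptors, kinases, sensors, adaptors and negative regulators past the fold with at least 30 reads, the endosomal RNA receptor genes Tlr7 (-3.10 and -3.06) and Tlr3 (-2.91 and -3.001) had the largest changes, both lower in leukemia cells. Isg20, an exonuclease gene, changed by -2.61 and -3.02, and Ifit1bl1, a relative of the IFIT genes, by -2.92 and -2.97.

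The interferon-inducible IRG and GBP GTPases, which attack the vacuoles of intracellular pathogens and respond to interferon gamma as well, cross with this program. All 15 were lower with iron in leukemia cells (median -0.52), against 49.3% of all genes. Past the fold there were Tgtp2 (-1.62) and Gbp2 (-1.32), against 0.429% of all genes lower and 0.435% higher. In MA9 macrophages 12 of 15 were lower with iron (median -0.33), against 48.2% of all genes. Past the fold there were Iigp1 (-1.39) and Tgtp1 (-1.09), against 1.26% of all genes lower and 1.19% higher. Both were also past it, as higher, between MA9 and WT macrophages (2.03 and 1.34), where 3.78% of all genes were. In WT macrophages 11 of 15 were lower with iron (median -0.07), against 53.3% of all genes, and 0 were past the fold. In leukemia cells against macrophages 12 of 15 were past the fold, all lower, both without iron (median -1.32) and with iron (median -1.96). Of all genes 12.7% and 13.2% were past it as lower. Gbp8 (-4.01 and -4.70), Gbp9 (-3.37 and -3.63) and Gbp4 (-3.25 and -3.29) were among the GTPases past it.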

How the data were processed

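RNA-seq of 6 libraries was analysed, 1 per condition, grouped by the sample labels. The authors deposited FPKM per Ensembl gene. Their processing notes name mm10, Bowtie2 2.2.5 and RSEM, without their roles, and strand use is not given in the sources used here. FPKM multiplied by the exon length in GENCODE M21 gave whole reads (within 0.05) for 96.8% to 97.0% of values above 0, from which depth and read counts were recovered. Pairs were scaled by TMM (coded by hand), and changes are differences of log2(FPKM + 1) with the stated minimum of 10 reads. Fits used limma 3.58.1 in R 4.3.3 for genes that reached 10 reads in 2 or more libraries, with p-values adjusted by Benjamini and Hochberg's method. The rest ran in Python 3.11.15 (numpy 2.4.6, pandas 2.3.3, matplotlib 3.10.9, scipy 1.17.1). The fold calls and the limma fits of iron were tested on simulated data. For limma, iron was simulated with the same effect in each kind of cell. The members and lists were chosen with earlier results of these data known. In each comparison the genes past the fold were named, or, above 8, the 8 with the largest changes among those with at least 30 reads. Pathway genes past the fold were named up to 6 per comparison. Other genes of the 34 were named as examples of their role group after their values were seen. One gene of the pathway lists is not reported here.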

Additional observations from a re-analysis of the deposited data

How the results depend on the processing

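Other scalings (median of ratios, FPKM as deposited), no minimum of reads, a minimum of 50 reads and a test of the recovered reads for counting noise kept each count of genes past the fold within 1.5 times. A pseudocount of 0.1 raised the count in leukemia cells with iron from 5 to 9. Between MA9/FE and WT/FE macrophages, the count of 2 became 1 with the length trend removed and 0 with the trend fitted to genes of at least 100 reads. In limma the count past adjustment was 0 in every setting, and 0 to 0 when each pair was left out. Without the block by kind of cell 1 gene had an unadjusted limma p under 0.05. The mean-variance trend in limma and the second length trend were chosen after seeing the data. The pairs in limma are by kind of cell. No pairing by mouse could be made, since the labels carry no replicate numbers. No value past the fold changed sign. The median of iron in MA9 macrophages, 0.00, became 0.02 with the length trend removed. Of 1664 values of single genes across settings, 16 changed sign, 11 of them for iron in MA9 macrophages. The causes were not tested. Single libraries give no spread between mice, and the counting intervals cover counting error only.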
